A study of Mus musculus with 4 samples.

Results

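The ISG15 conjugation system attaches the small ubiquitin-like protein ISG15 to other proteins and removes it again, and its transcripts were followed in osteocyte-like cells with and without mechanical loading. The genes were chosen by name from the table of gene counts: *Isg15*, *Uba7*, *Ube2l6*, *Herc6*, *Usp18* and *Trim25*, which are 6 of the 55450 genes in the table. Each name had 1 row, and all 6 genes were among the 16269 that passed the filter on low counts, so no member was left out.

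RNA-seq of total RNA depleted of ribosomal RNA was carried out on 4 cultures of MLO-Y4, a mouse cell line labelled as wild type that models osteocytes, the cells embedded in bone matrix that sense mechanical strain. The unloaded group (n = 2) was kept for 12 h in ordinary culture plates inside the incubator of the loading system. The loaded group (n = 2) grew on a silicone membrane coated with collagen, which was stretched equally in all directions of its plane during 12 h, with a strain of 20% and a frequency of 0.5 Hz. Both groups grew in the same medium with fetal and newborn calf serum. MLO-Y4 is 1 clonal line, so the libraries are not separate animals, and the kind of plate differed between the groups together with the stretch, so stretch and plate cannot be told apart. The libraries held 28941994 (unloaded replicate 1), 30058313 (unloaded replicate 2), 32185693 (loaded replicate 1) and 30337236 counts (loaded replicate 2). At these depths 3 counts, taken as the floor of detection, correspond to 0.093 to 0.103 CPM, the TMM-normalized unit of abundance used throughout. Nothing in the sources used here says how the replicate cultures were separated, so p-values measure only the spread between these samples, which may be technical.

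Type I interferons bind a receptor at the cell surface and, through the kinases JAK1 and TYK2, activate transcription factors that drive interferon-stimulated genes, ISG15 and its enzymes among them. ISG15 is made as a precursor, is activated by UBA7, passed to UBE2L6 and joined to lysines of target proteins by a ligase, which in mouse is mainly HERC6, while USP18 cuts it off again and also binds the interferon receptor, where it restrains signalling. TRIM25 is a ubiquitin ligase of antiviral sensing that has also been reported to attach ISG15.

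The identity of the cells was examined with marker genes. Of 12 genes of the osteoblast and osteocyte lineage, 9 passed the filter. *Col1a2*, which encodes a collagen chain of bone matrix, was the most abundant, at 1504 and 1396 CPM in the unloaded and 1296 and 1413 CPM in the loaded libraries. *Gja1*, which encodes the gap junction protein connexin 43, was at 500.1 and 493.6 CPM in the unloaded libraries, and *Phex* and *Runx2* were present in all 4 libraries. *Pdpn*, a marker of early osteocytes, was at 143 and 151 CPM in the unloaded and 215 and 228 CPM in the loaded libraries (log2 fold change 0.59, edgeR adjusted p = 0.0334), and it was the only gene of the list with an edgeR adjusted p under 0.05 (0.338% of all tested genes were higher at that limit). The markers of mature osteocytes were absent or nearly so: *Mepe* had 0 counts, *Sost* had 4 counts in loaded replicate 1 and 0 elsewhere, and *Dmp1* stayed between 0.396 and 0.482 CPM. Of the osteoblast markers, *Sp7*, *Alpl* and *Bglap* were likewise at or near 0, with at most 25 counts in any library. The collagen genes, *Gja1*, *Phex*, *Pdpn* and *Runx2* were thus present, and the other listed markers were at or near 0.

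All 6 transcripts were lower in both loaded libraries than in both unloaded libraries, an arrangement that was found for 24.5% of all tested genes. The activating enzyme *Uba7* and the protease *Usp18* were 3.16-fold and 2.97-fold lower in loaded cells. The modifier *Isg15*, the ligase *Herc6* and the conjugating enzyme *Ube2l6* were 2.36-fold, 2.096-fold and 1.93-fold lower, and *Trim25* was 1.17-fold lower. Differences were tested with the quasi-likelihood F test of edgeR on all 16269 genes, with Benjamini-Hochberg adjustment. At an adjusted p under 0.01, 0 of the 6 genes passed in edgeR, against 0.0861% of all tested genes called lower, although all 6 were lower at a p under 0.05 before adjustment, against 7.46% of all tested genes lower and 6.88% higher at that limit. With the limit at 0.05 instead, 3 of the 6 passed in edgeR (*Isg15*, *Uba7* and *Herc6*), against 0.565% of all tested genes called lower. That number was 1 (*Uba7*) without loaded replicate 1, 0 without loaded replicate 2, and 3 with either unloaded library left out. With the Wald test of DESeq2 at an adjusted p under 0.01, 4 of the 6 passed (the same 3 genes and *Usp18*), against 1.52% of the 12659 genes with an adjusted p. The median log2 fold change (loaded minus unloaded) was -1.15 over the 6 genes and -0.01 over all tested genes. In a culture measured in bulk, fewer cells that express a gene and less RNA of it per cell cannot be told apart.

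**Figure D1:**
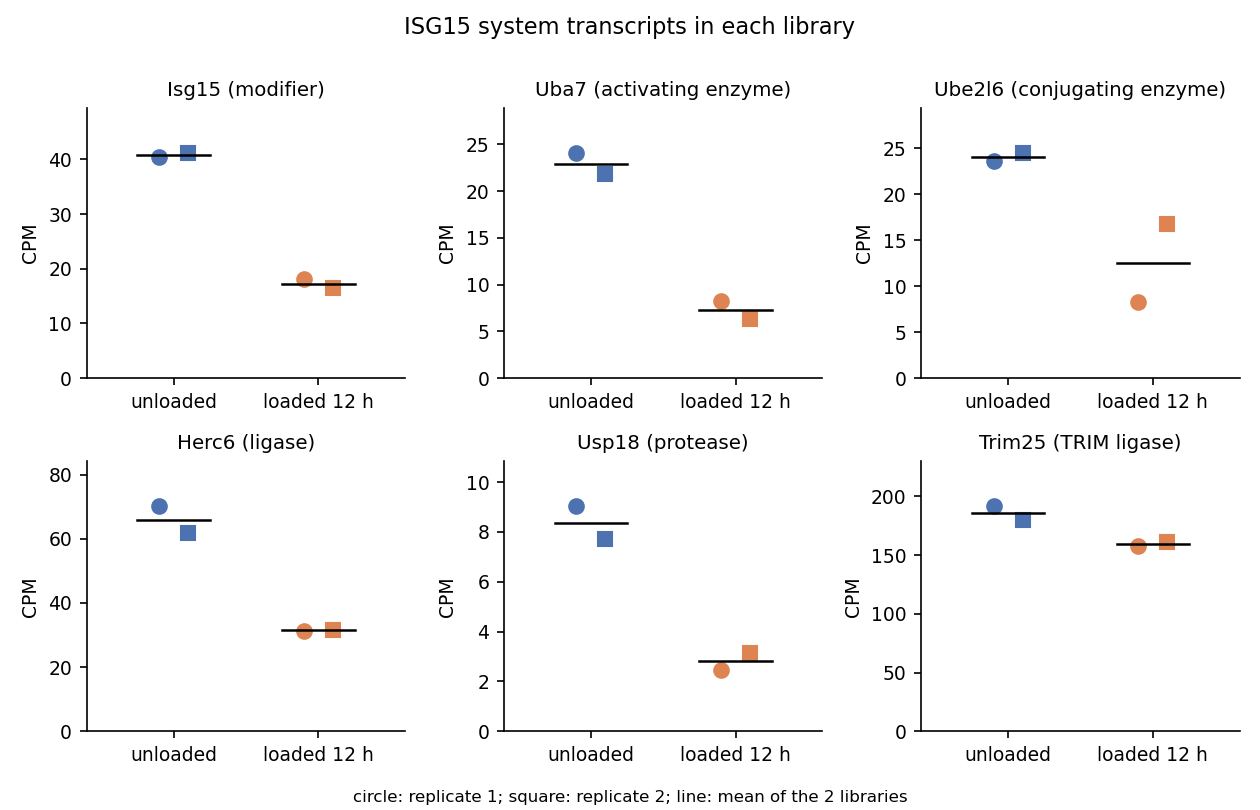
CPM (vertical axes, each starting at 0) of the 6 ISG15 system genes in the 2 unloaded and 2 loaded libraries, 1 point per library and a line at each group mean. Both loaded points lie below both unloaded points in every panel, and the loaded points of *Ube2l6*, at 8.28 and 16.7 CPM, lie farthest apart.

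*Isg15* (ENSMUSG00000035692.6, chr4:156199424-156200818 on the minus strand of GRCm38) encodes the modifier itself and has an exon length of 756 bases in 2 exon blocks. It had 1176 and 1247 counts without loading and 583 and 491 counts with loading. These were 40.5 and 41.1 CPM against 18.1 and 16.5 CPM, so the groups lay far apart compared with the distance between replicates. Group means were 40.8 ± 0.463 CPM without and 17.3 ± 1.13 CPM with loading (SD, n = 2 each). This gave a log2 fold change of -1.24 (standard error 0.104, 95% interval -1.49 to -0.99, edgeR adjusted p = 0.0128). Over 12 alternatives of the test, the normalization, the filter and the libraries, the adjusted p of *Isg15* ranged from 3.51e-12 (edgeR exact test) to 0.0675 (without loaded replicate 2).

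Type I interferon signalling acts on promoters through the interferon-stimulated response element, so the promoters of the members were read from RefSeq (GRCm38.p6), each from 250 bases before to 50 bases after the gene start. Of the 6 genes, 5 matched the promoter table, and *Usp18* did not. The letters GAAANNGAA, the core of that element, were searched on both strands together with TTCNNNGAA, the gamma-activated site, and TGACNNNGC, the core of the antioxidant response element. Among 32851 promoters of 300 bases, 8.56% held the first, 8.30% the second and 12.4% the third. The *Isg15* promoter held 3 overlapping matches of GAAANNGAA on its own strand, at -78 to -70, -72 to -64 and -66 to -58, counted from the first transcribed base as 0. A promoter with 3 or more such matches was present for 21 of the 27025 gene symbols in the table. The *Trim25* promoter held 1 match on the opposite strand, at -9 to -1. The promoters of *Uba7*, *Ube2l6* and *Herc6* held none, and a promoter without a match only lacks these letters in this window. No member promoter held TTCNNNGAA, and only that of *Herc6* held TGACNNNGC, on the opposite strand at -22 to -14. The annotated start in GENCODE was the same as in RefSeq for *Isg15* and *Ube2l6*, and it differed by 62 bases for *Uba7*, 8 for *Herc6* and 27 for *Trim25*. The promoters of *Isg15* and *Trim25*, which hold the matches, and of *Uba7*, which had the lowest log2 fold change, are shown 5′ to 3′ with the matches of GAAANNGAA on either strand in capitals.
Isg15 promoter, chr4:156200769-156201068, minus strand: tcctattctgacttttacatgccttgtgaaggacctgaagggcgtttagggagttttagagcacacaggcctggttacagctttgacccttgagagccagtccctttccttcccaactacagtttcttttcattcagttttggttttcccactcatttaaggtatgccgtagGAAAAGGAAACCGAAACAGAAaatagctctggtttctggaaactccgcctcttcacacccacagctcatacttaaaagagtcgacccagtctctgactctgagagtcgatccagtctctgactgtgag
Trim25 promoter, chr11:88999153-88999452, plus strand: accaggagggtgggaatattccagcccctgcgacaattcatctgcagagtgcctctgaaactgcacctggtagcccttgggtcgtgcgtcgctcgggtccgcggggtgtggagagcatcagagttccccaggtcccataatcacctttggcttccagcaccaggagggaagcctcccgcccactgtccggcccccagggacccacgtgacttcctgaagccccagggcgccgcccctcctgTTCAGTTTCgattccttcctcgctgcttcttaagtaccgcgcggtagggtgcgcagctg
Uba7 promoter, chr9:107975317-107975616, plus strand: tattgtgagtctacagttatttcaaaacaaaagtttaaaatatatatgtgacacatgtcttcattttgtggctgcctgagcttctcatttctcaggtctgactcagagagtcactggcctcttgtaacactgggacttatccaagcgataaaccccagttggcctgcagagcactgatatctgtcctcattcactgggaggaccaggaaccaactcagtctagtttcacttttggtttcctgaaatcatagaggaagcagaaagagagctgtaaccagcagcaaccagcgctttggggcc
A match is a description of the sequence and not of binding. The 3 matches of *Isg15* form 1 run of 21 bases, whereas the match of *Trim25* stands alone beside the gene start.

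*Uba7* (ENSMUSG00000032596.14, chr9:107975505-107984060, plus strand) encodes the enzyme that activates ISG15 at the start of the cascade. It had 699 and 662 counts without loading and 265 and 188 counts with loading. On the normalized scale these were 24.1 and 21.8 CPM against 8.21 and 6.31 CPM, with no overlap between the groups. Group means were 23.0 ± 1.57 CPM without and 7.26 ± 1.35 CPM with loading (SD, n = 2 each), the largest fold difference among the 6 genes. Its log2 fold change of -1.66 had a standard error of 0.174 and a 95% interval of -2.08 to -1.23 (edgeR adjusted p = 0.0216). Over the same 12 alternatives its adjusted p ranged from 4.45e-10 to 0.0733. *Gm20661* shares 233 exon bases with *Uba7* on the same strand, and it had 5 and 13 counts without loading and 0 and 4 with loading, and how reads were split between the genes is uncertain.

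*Ube2l6* (ENSMUSG00000027078.14, chr2:84798828-84810335, plus strand) encodes the conjugating enzyme that takes ISG15 from UBA7. It had 686 and 741 counts without loading and 267 and 498 counts with loading. The unloaded libraries were close to each other, at 23.6 and 24.5 CPM, whereas loaded replicate 1 had 8.28 CPM and loaded replicate 2 had 16.7 CPM. The loaded replicates thus differed 2.02-fold, the widest gap within a group among the 6 genes. Group means were 24.0 ± 0.587 CPM without and 12.5 ± 5.96 CPM with loading (SD, n = 2 each). This gave a log2 fold change of -0.95 (standard error 0.308, 95% interval -1.70 to -0.19), and it did not pass in edgeR (adjusted p = 0.252). It was -0.52 without loaded replicate 1 and -1.54 without loaded replicate 2, so its size rested on which loaded library was used. The gene whose pattern over the 4 libraries lay nearest to that of *Ube2l6* was *Tbl1xr1*, which had 33.7 CPM in loaded replicate 1 and 84.5 CPM in loaded replicate 2.

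*Herc6* (ENSMUSG00000029798.11, chr6:57581000-57664632, plus strand) encodes the ligase that performs most ISG15 attachment in mouse cells. It had 2035 and 1873 counts without loading and 1011 and 941 counts with loading. These were 70.1 and 61.8 CPM against 31.3 and 31.6 CPM, and the loaded replicates were the closest pair among the 6 genes. Group means were 65.9 ± 5.85 CPM without and 31.5 ± 0.169 CPM with loading (SD, n = 2 each). This gave a log2 fold change of -1.07 (standard error 0.106, 95% interval -1.32 to -0.81, edgeR adjusted p = 0.0197), and over the 12 alternatives the adjusted p of *Herc6* ranged from 2.11e-11 to 0.0913. *Gm45193*, a transcript on the same strand, shares 1269 exon bases with *Herc6* and had at most 7 counts in any library. Of the stretches of 50 bases in *Herc6* transcripts, 12.5% also occurred in transcripts of other genes, so the *Herc6* counts carry more uncertainty of this kind than those of *Trim25*, for which the share was 0.295%.

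*Usp18* (ENSMUSG00000030107.10, chr6:121245906-121270917, plus strand) encodes the protease that removes ISG15 and a brake on the interferon receptor. It was the least abundant member by count, with 262 and 234 counts without loading and 80 and 94 counts with loading. These were 9.02 and 7.72 CPM against 2.48 and 3.15 CPM, all well above the floor of 3 counts. Group means were 8.37 ± 0.919 CPM without and 2.82 ± 0.477 CPM with loading (SD, n = 2 each). This gave a log2 fold change of -1.57 (standard error 0.233, 95% interval -2.14 to -1.004, edgeR adjusted p = 0.051). *Usp18* missed the threshold of 0.05 in edgeR, and over the 12 alternatives its adjusted p ranged from 0.000108 (edgeR exact test) to 0.159 (without loaded replicate 1). The long noncoding gene *Gm44148* lies antisense to *Usp18* and shares 124 exon bases with it. The strand setting of the counting is not given in the sources used here, so reads of these 2 genes cannot be told apart there. *Gm44148* had 3 and 21 counts without loading and 19 and 38 with loading.

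*Trim25* (ENSMUSG00000000275.16, chr11:88999376-89020293, plus strand) encodes a ubiquitin ligase of RNA sensing. It was the most abundant member by count, with 5560 and 5457 counts without loading and 5100 and 4793 counts with loading. These were 191 and 180.1 CPM against 158 and 161 CPM, so the groups did not overlap but lay close together. Group means were 186 ± 8.05 CPM without and 159 ± 1.95 CPM with loading (SD, n = 2 each). This gave a log2 fold change of -0.22 (standard error 0.0678, 95% interval -0.39 to -0.06), and it did not pass in edgeR (adjusted p = 0.228). Its 95% interval did not overlap those of *Isg15*, *Uba7*, *Herc6* and *Usp18*, and it overlapped that of *Ube2l6*.

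Whether the members moved by the same amount was examined with the ratio of each gene to *Isg15* within a library, in which library size cancels. The log2 ratio of *Trim25* to *Isg15* was 2.24 and 2.13 without loading and 3.13 and 3.29 with loading. Loaded libraries were thus 1.02 higher on the log2 scale, with a pooled SD of 0.097 between replicates, and the groups did not overlap. The log2 ratio of *Uba7* to *Isg15* was -0.75 and -0.91 in the unloaded and -1.14 and -1.39 in the loaded libraries, a difference of -0.43 with no overlap. The ratio of *Herc6* to *Isg15* differed by 0.18 between the groups, and by 0.28 without unloaded replicate 1 and 0.08 without unloaded replicate 2. The ratios of *Usp18* and *Ube2l6* to *Isg15* differed by -0.34 and 0.21, and the groups overlapped for both. For *Usp18* the difference was -0.09 without loaded replicate 1 and -0.58 without loaded replicate 2. For *Ube2l6* it was 0.79 without loaded replicate 1 and -0.36 without loaded replicate 2. A two-sided exact permutation test over 6 arrangements of the libraries cannot give a p below 0.333, and it gave that value for *Trim25*, *Uba7* and *Herc6*, 0.667 for *Usp18* and 1 for *Ube2l6* (0.555, 0.834 and 1 after Benjamini-Hochberg adjustment over 5 ratios). With 2 libraries a group, this test therefore could not show at any usual threshold that the members differed in their response.

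Levels were compared between genes after division by exon length, as CPM per kilobase of exon. That length merged the annotated exons of all transcripts of a gene, so it can exceed the length of the transcript that was expressed. The SD between replicates does not cover this, and the order of genes at close levels may depend on it. In unloaded cells *Isg15* was the highest, at 54.0 ± 0.614 (SD, n = 2), followed by *Trim25* at 32.3 ± 1.40, *Ube2l6* at 12.0 ± 0.294 and *Herc6* at 7.10 ± 0.629 (SD, n = 2 each). *Uba7* and *Usp18* were the lowest, at 3.43 ± 0.235 and 3.001 ± 0.33, and their difference was close to the spread between replicates. The modifier was thus far more abundant as a transcript than the enzymes that activate it and remove it. In loaded cells the order at the top was the other way round, with *Trim25* at 27.7 ± 0.338 and *Isg15* at 22.9 ± 1.49 (SD, n = 2 each). *Ube2l6* at 6.26 ± 2.99 and *Herc6* at 3.39 ± 0.0183 differed by less than the SD of *Ube2l6*, and *Uba7* at 1.09 ± 0.201 and *Usp18* at 1.01 ± 0.171 overlapped. Summed over the 6 genes, the level was 113 and 111 without loading and 61.0 and 63.6 with loading. *Trim25* made up 29.4% and 28.3% of that sum in the unloaded and 45% and 44% in the loaded libraries. *Isg15* made up 47.4% and 49.2% against 39.2% and 34.3%.

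**Figure D2:**
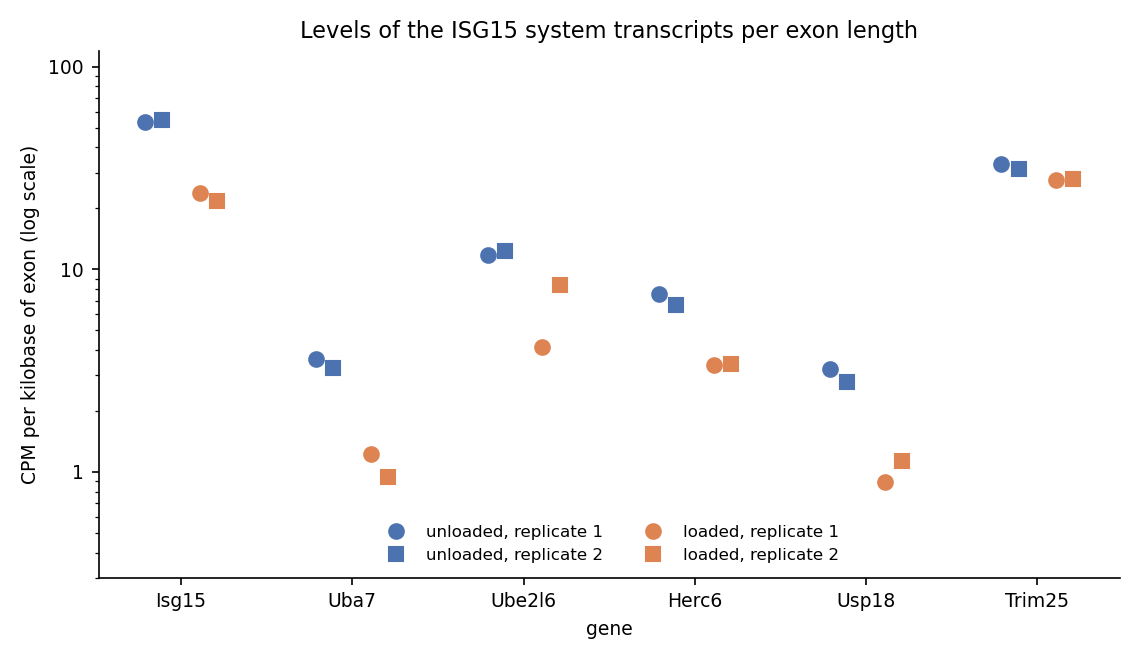
CPM per kilobase of exon (log scale) of the 6 ISG15 system genes, 1 point per library. *Isg15* lies above *Trim25* in the unloaded libraries (54.0 against 32.3 on average) and below it in the loaded libraries (22.9 against 27.7).

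The same roles are filled in parallel pathways by ubiquitin, NEDD8, SUMO and other modifiers with their own enzymes, and these genes were compared with the members in the same fit. Of 13 modifier genes, 0 passed an edgeR adjusted p of 0.05 in either direction, with 1 lower and 3 higher at an unadjusted p under 0.05 (7.46% and 6.88% of all tested genes), and their median log2 fold change was 0.06. DESeq2 called 1 of them higher at an adjusted p under 0.01, against 1.34% of the genes with an adjusted p. For *Nedd8*, the modifier of cullin ligases, the log2 fold change was 0.03, and for *Ubb*, a polyubiquitin gene, it was 0.15. The lowest value in the list was that of *Ubd*, which encodes the ubiquitin-like protein FAT10, another modifier known to respond to interferon. *Ubd* was at 5.75 and 5.51 CPM in the unloaded and 3.47 and 1.75 CPM in the loaded libraries (log2 fold change -1.11, edgeR adjusted p = 0.245).

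Among 9 activating enzymes of parallel pathways, 0 had an unadjusted p under 0.05 in edgeR and 0 passed in DESeq2, and their median log2 fold change was 0.01. *Uba1*, the main activating enzyme of ubiquitin, was at 343 and 338 CPM in the unloaded and 375 and 344 CPM in the loaded libraries (log2 fold change 0.08). Among 14 conjugating enzymes the median was 0.05, 0 passed an edgeR adjusted p of 0.05 or a DESeq2 adjusted p of 0.01, and 2 were higher at an unadjusted p under 0.05 (6.88% of all tested genes). *Ube2l3*, the closest relative of *Ube2l6*, was at 92.4 and 79.9 CPM in the unloaded and 111 and 108 CPM in the loaded libraries, with a log2 fold change of 0.35 against -0.95 for *Ube2l6* (edgeR adjusted p = 0.19 for *Ube2l3*).

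All 5 other ligases, 4 of the HERC family and *Arih1*, had a positive log2 fold change, as did 48.5% of all tested genes, with a median of 0.13, and 0 of them had an unadjusted p under 0.05 in edgeR or passed in DESeq2. *Herc4* was at 87.7 and 87.4 CPM in the unloaded and 99.8 and 98.01 CPM in the loaded libraries (log2 fold change 0.18), and *Herc3* was at 1.21 and 1.22 against 1.302 and 1.81 CPM. Of 6 other proteases reported to act on ISG15, 5 were tested, and *Usp13* had at most 5 counts in any library. Their median was 0.04, and again 0 had an unadjusted p under 0.05 in edgeR or passed in DESeq2. *Usp5* and *Usp14*, which also act on ubiquitin chains, had log2 fold changes of 0.15 and 0.04. All 5 tested proteases are also counted among the USP genes that follow. Of 42 tested USP genes other than *Usp18*, 0 passed an edgeR adjusted p of 0.05, with 2 lower and 7 higher at an unadjusted p under 0.05, against 7.46% and 6.88% of all tested genes. DESeq2 called only *Usp32* among them, which was higher in loaded cells (log2 fold change 0.39), against 1.34% of the genes with an adjusted p called higher.

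The TRIM family, to which *Trim25* belongs, holds several antiviral genes. Of 47 tested TRIM genes other than *Trim25*, 1 was lower at an edgeR adjusted p under 0.05 and 3 were lower at a DESeq2 adjusted p under 0.01, and 0 were higher by either test. Among all tested genes 0.565% were lower by that edgeR limit, and 1.52% of those with an adjusted p in DESeq2 by its own. Before adjustment, 9 were lower and 0 higher at a p under 0.05, against 7.46% and 6.88% of all tested genes, and the log2 fold changes ranged from -1.74 to 0.58 with a median of -0.11. *Trim30a* was at 89.0 and 79.6 CPM in the unloaded and 38.8 and 42.9 CPM in the loaded libraries (log2 fold change -1.04, edgeR adjusted p = 0.0216). *Trim21*, a cytosolic antibody receptor, and *Trim34a* had log2 fold changes of -0.90 and -1.48 (edgeR adjusted p = 0.0556 and 0.0871). The value of *Trim25*, -0.22, lay nearer to the median of its family than to these genes.

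**Figure D3:**
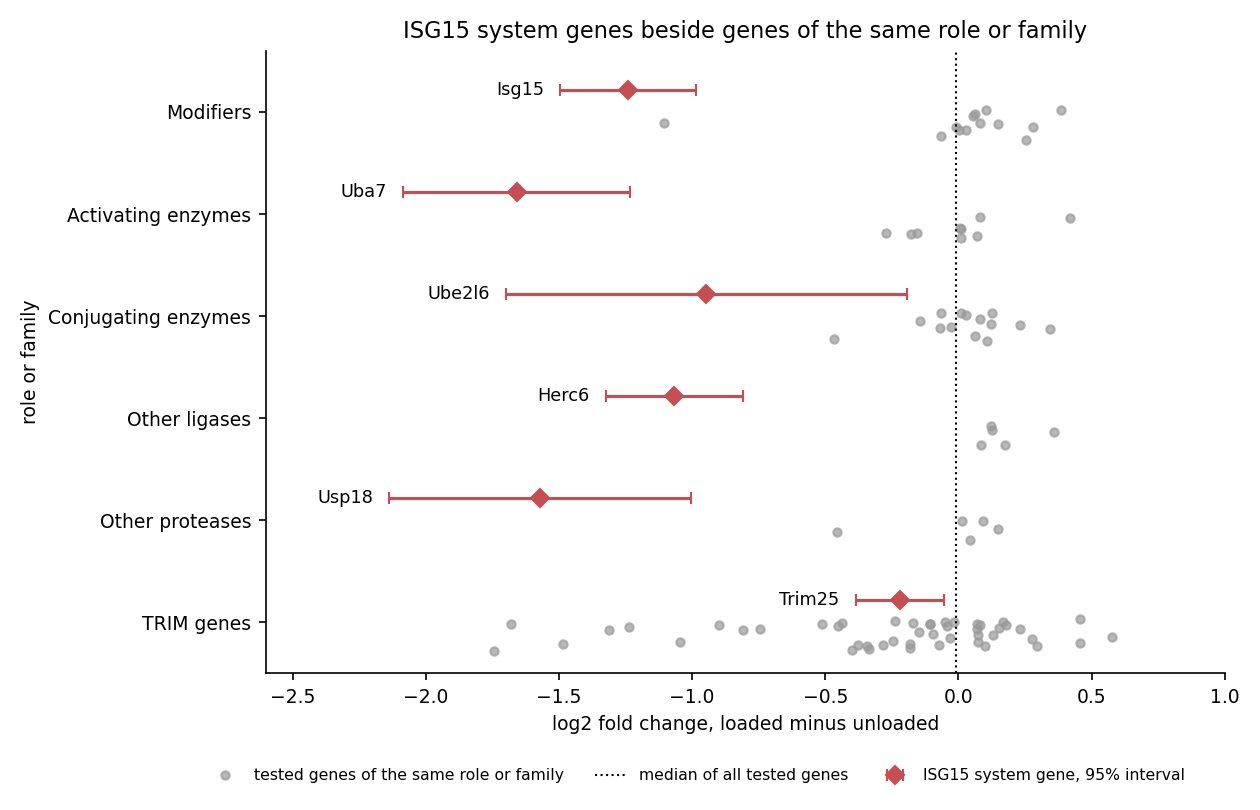
Log2 fold change (loaded minus unloaded) of each ISG15 system gene with its 95% interval (diamonds) and of the tested genes of the same role or family (grey points), with the median of all tested genes as a dotted line at -0.01. The grey points of the modifiers, enzymes, ligases and proteases lie mostly around 0, whereas *Isg15*, *Uba7*, *Herc6* and *Usp18* lie between -1.07 and -1.66, *Ube2l6* at -0.95 with an interval of -1.70 to -0.19, and *Trim25* at -0.22.

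The regulators of the system's transcription were described next, as a list of 11 genes of type I interferon signalling. Of these, 10 were tested and all 10 had a negative log2 fold change, as did 51.5% of all tested genes, with a median of -0.53. At an edgeR adjusted p under 0.05, 4 were lower (0.565% of all tested genes) and 0 higher, and DESeq2 called 5 lower at an adjusted p under 0.01 (1.52% of the genes with an adjusted p). *Irf7*, which encodes the factor that amplifies interferon production, was at 17.6 and 17.5 CPM in the unloaded and 5.77 and 4.63 CPM in the loaded libraries (log2 fold change -1.75, standard error 0.173, edgeR adjusted p = 0.0197). *Stat2* was at 64.6 and 64.7 against 34.6 and 39.4 CPM, and *Irf9* was at 28.4 and 29.4 against 17.3 and 16.3 CPM. *Stat2* and *Irf9* thus had log2 fold changes of -0.81 and -0.79 (edgeR adjusted p = 0.0378 and 0.041).

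*Irf1* was called lower by DESeq2 and not by edgeR, and its unloaded libraries differed, at 75.6 and 105 CPM, against 61.9 and 60.5 CPM in the loaded libraries (log2 fold change -0.56, edgeR adjusted p = 0.193). The receptor genes *Ifnar1* and *Ifnar2* had log2 fold changes of -0.20 and -0.50 and did not pass either test. The kinase gene *Jak1* was at 303 and 277 CPM in the unloaded and 285 and 291 CPM in the loaded libraries, and its log2 fold change was -0.01 (95% interval -0.17 to 0.16). *Ifnb1*, which encodes interferon beta, had 8 and 31 counts without loading and 4 and 0 with loading and was not tested. Its unloaded replicates differed widely, and the highest level was 1.02 CPM.

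**Figure D4:**
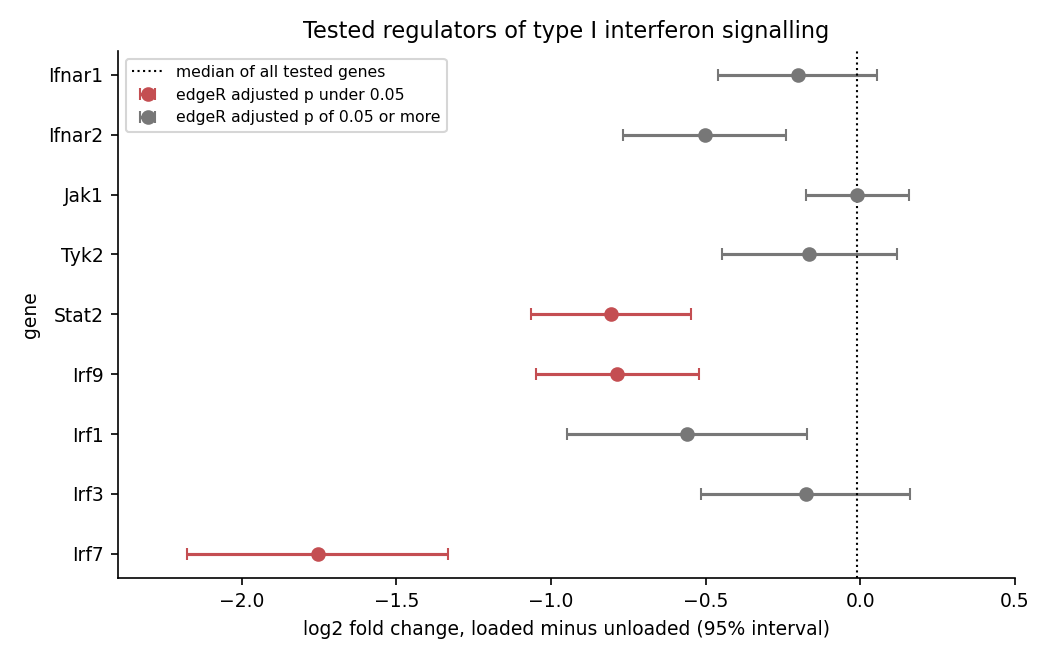
Log2 fold change (loaded minus unloaded) with 95% interval of 9 of the 10 tested regulators of type I interferon signalling, in red where the edgeR adjusted p was under 0.05. *Irf7* lies lowest at -1.75, and *Jak1* lies on the median of all tested genes.

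Proteins that have been reported to carry ISG15 were followed through 19 genes, all of them tested. At an edgeR adjusted p under 0.01 only *Ifit1* was lower, from 145 and 139 CPM to 39.2 and 45.8 CPM (log2 fold change -1.74, edgeR adjusted p = 0.00785), against 0.0861% of all tested genes. At an edgeR adjusted p under 0.05, 0 were higher and 4 lower (0.565% of all tested genes were lower), among them *Ifit1* and the RNA sensors *Ddx58* and *Ifih1*, with log2 fold changes of -0.71 and -0.95 for the sensors. DESeq2 called 6 lower, among them *Eif2ak2* (log2 fold change -0.55) and *Mx2* (-1.98), and 1 higher, *Hif1a* (0.33), against 1.52% and 1.34% of the genes with an adjusted p. The median of the list was -0.12, and the reported targets that are not known as interferon-stimulated, such as *Pcna*, *Trp53* and *Becn1*, had log2 fold changes between -0.15 and -0.05. *Jak1* and *Irf3*, among others, stand in this list and in that of the regulators, and *Ube2n* stands here and among the conjugating enzymes.

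Free ISG15 outside the cell binds the integrin LFA-1, made of the products of *Itgal* and *Itgb2*, and USP18 works with the products of *Stat2*, *Ifnar2* and *Skp2*. All 5 genes had a negative log2 fold change, as did 51.5% of all tested genes, with a median of -0.50. Of them 2 were lower at an edgeR adjusted p under 0.05 and a DESeq2 adjusted p under 0.01, against 0.565% of the genes tested in edgeR and 1.52% of those with an adjusted p in DESeq2. *Itgb2* was at 99.3 and 86.5 CPM in the unloaded and 46.4 and 43.3 CPM in the loaded libraries (log2 fold change -1.05, edgeR adjusted p = 0.021), and the other was *Stat2*. *Itgal*, the partner of *Itgb2*, was near the limit of what was tested, between 0.705 and 1.65 CPM in all 4 libraries. *Stat2* and *Ifnar2* also stand in the list of regulators, so the call of *Stat2* is counted in both lists.

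*Itgb2* is best known from leukocytes, so markers of leukocytes and other cells were examined beside these results. Of 9 macrophage and other leukocyte markers, 4 passed the filter, all 4 had a negative log2 fold change (51.5% of all tested genes), and 0 passed an edgeR adjusted p of 0.05 or a DESeq2 adjusted p of 0.01, with 2 lower at an unadjusted p under 0.05 (7.46% of all tested genes). The defining markers *Ptprc*, *Adgre1*, *Itgam* and *Cd3e* were at or near 0, with at most 4 counts in any library. *Csf1r*, the receptor of a macrophage growth factor, was the most abundant of the list, at 1573 and 1584 CPM in the unloaded and 1558 and 1562 CPM in the loaded libraries. The summed level of the list was 1633 and 1645 CPM in the unloaded and 1604 and 1610 CPM in the loaded libraries. *Cd68* was at 5.58 and 4.65 against 3.07 and 2.82 CPM, and *Cd14* at 52.5 and 54.7 against 41.6 and 44.0 CPM. The part of these values in the ISG15 system result was not tested.

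Plasmacytoid dendritic cells are strong producers of interferon. Of their 3 listed markers 2 were tested, and 0 passed in edgeR or DESeq2, with 1 lower at an unadjusted p under 0.05 (7.46% of all tested genes). The defining marker *Siglech* had 10 counts in unloaded replicate 1 and 0 in the other libraries. *Bst2*, the most abundant of them and itself interferon-stimulated, was at 110.4 and 132 CPM in the unloaded and 97.4 and 97.3 CPM in the loaded libraries. The 3 markers summed to 175 and 181 CPM in the unloaded and 156 and 157 CPM in the loaded libraries, and the part of this difference was not tested. The endothelial markers *Pecam1*, *Cdh5* and *Kdr* summed to at most 3.10 CPM in any library. Among them *Kdr* had 0 and 0 counts in the unloaded and 17 and 14 counts in the loaded libraries (edgeR adjusted p = 0.1355). It was higher at an unadjusted p under 0.05, and the groups did not overlap, but no fold change can be given over a group at 0. The reason for this was not tested. Of 4 osteoclast markers only *Ctsk* was tested, at 5.13 and 4.85 against 7.93 and 7.35 CPM (log2 fold change 0.61). *Ctsk* was higher at an unadjusted p under 0.05 in edgeR (6.88% of all tested genes), and the groups did not overlap. It did not pass after adjustment in edgeR (adjusted p = 0.228) or in DESeq2. *Ocstamp* had 0 counts, and *Acp5* and *Calcr* had at most 6. For the reference gene *Actb* the log2 fold change was 0.03, with an adjusted p = 0.914 in edgeR.

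Genes outside the list with the most similar pattern over the 4 libraries were found by the Euclidean distance between log2 profiles among 13318 genes of at least 1 CPM. Nearest to *Isg15* were the matrix protease gene *Mmp9* (distance 0.103), the guanylate-binding protein gene *Gbp3* (0.117), the GTPase gene *Tgtp2* (0.121) and the scavenger receptor gene *Stab1* (0.124). *Ifi205*, *Htra3*, *4930453N24Rik* and *Gbp4* followed, at distances of 0.135 to 0.146. *Mmp9* was at 28.6 and 27.8 CPM in the unloaded and 11.8 and 11.01 CPM in the loaded libraries, and *Gbp3* at 91.4 and 93.0 against 38.9 and 39.7 CPM. Nearest to *Uba7* were *BC023105*, *Irf7* and *Gda*, to *Usp18* *Capn5*, *Rtp4* and *Trim34a*, and to *Herc6* *Ikbke*, *Lpcat1* and *Itgb2*. Nearest to *Ube2l6* after *Tbl1xr1* were *Ccdc89* and *Trim30c*, and nearest to *Trim25* were *Gcfc2*, *Antxr1* and *Trdmt1*. Among the members themselves *Isg15* and *Herc6* were the closest pair, at 0.305, and *Uba7* and *Trim25* the farthest, at 2.06. With 4 libraries in 2 groups, such distances describe the libraries and carry no test.

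The 6 genes lie on 5 chromosomes, with *Herc6* and *Usp18* both on chromosome 6, and their nearest tested neighbours were examined for a shared difference. *Agrn*, 1936 bases from *Isg15*, was at 48.3 and 47.9 CPM in the unloaded and 36.4 and 36.3 CPM in the loaded libraries (log2 fold change -0.41, edgeR adjusted p = 0.135), and *AW011738* on the other side had a log2 fold change of -0.16. *Inka1* and *Traip* on either side of *Uba7* had log2 fold changes of 0.11 and -0.10, although *Inka1* begins only 163 bases away. The neighbours of *Ube2l6*, *Gm19426* and *Timm10*, had values of -0.23 and 0.19, and those of *Trim25*, *Gm11496* and *Dgke*, of 0.21 and 0.14. *Ppm1k* near *Herc6* and *Pex26* near *Usp18* had the lowest values among the neighbours, at -0.62 and -0.91, and did not pass (edgeR adjusted p = 0.187 and 0.318). On their other sides lay *Gm37397* (-0.55) and *M6pr* (0.07), although *M6pr* lies 1037803 bases from *Usp18*. None of these genes passed an edgeR adjusted p of 0.05 or a DESeq2 adjusted p of 0.01, whereas 3 of the 12 (*Agrn*, *Ppm1k* and *Pex26*) were lower at an unadjusted p under 0.05 in edgeR, against 7.46% of all tested genes.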

How the data were processed

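The unit of the deposited table is the raw read count of each gene, which the authors made from trimmed reads of rRNA-depleted RNA. The submitters' processing notes name HISAT2 2.1.0, StringTie 1.3.5 and DESeq2 1.32.0. StringTie coverage, turned into whole counts, can divide reads between overlapping genes. Every one of the 55450 versioned gene identifiers was found in GENCODE M21 (GRCm38), from which coordinates and exon lengths were taken. The strand setting is not given in the sources used here. No counts lay on the 37 mitochondrial rows, so this measure of RNA quality was not available from the counts.

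Counts were filtered with filterByExpr (count minimum 10), normalized by TMM and tested in edgeR 4.0.16 (R 4.3.3) with glmQLFit and glmQLFTest on all 16269 genes, with Benjamini-Hochberg adjustment and the study's threshold of 0.01. The standard error is the size of the log2 fold change over the square root of F, and the interval covers 95%. DESeq2 1.42.0, limma-voom (limma 3.58.1), edgeR's exact test, other factors and filters, the replicate block and leaving out each library were alternatives. Profile distances used log2 CPM with a prior count of 2, taken relative to each gene's mean in the unloaded libraries, so they compare patterns and not levels. The fits were tested on simulated data of this comparison (16269 genes, 200 with a mean count over 50 changed, adjusted p under 0.01). Of 100 genes changed 2-fold and 100 changed 4-fold, edgeR recovered 63% and 91% with 6 false calls in all, and DESeq2 73% and 92% with 19. In both tests false calls were thus a larger share of the calls than the limit of 0.01 stands for, and more so in DESeq2. The chi-square per degree of freedom, 1 for counting noise alone, was 17.5 and 19.2 within groups and 27.0 to 30.9 between them. The floor of 3 counts covers counting error only.

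Named genes were the 6 members, list genes with an adjusted p under 0.01 in edgeR or DESeq2 (at most 6 a list), listed relatives, nearest profiles, neighbours, markers and *Actb*. Other list genes were named after their values were seen. The members and lists were chosen with earlier results of these data known. Protein sequences were not compared, and the values of some list genes are not reported here.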

Additional observations from a re-analysis of the deposited data

How the results depend on the processing

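The direction of all 6 ISG15 system genes was the same under every alternative run. At an adjusted p of 0.01 the edgeR quasi-likelihood test called 14 genes lower, 2 higher and 0 ISG15 system genes. These 3 counts became 192, 169 and 4 with DESeq2, 175, 104 and 4 with edgeR's exact test, 25, 4 and 1 (*Isg15*) with at least 10 counts in every library, and 92, 55 and 3 at an adjusted p under 0.05. Without a filter on low counts 0 genes passed in either direction. With the replicate number as a block (replicate block) the counts were 0, 0 and 0, and the adjusted p was 0.0275 for *Isg15*, 0.0275 for *Uba7* and 0.0384 for *Herc6*. Same-numbered libraries did not deviate together (correlation of deviations -0.057 across genes). With 2 libraries a group this cannot show whether same-numbered cultures were handled together. Leaving out each library in turn gave 0 to 25 genes lower, 0 to 18 higher and 0 ISG15 system genes, the lone library being assumed to vary like the other group. With either loaded library left out 0 genes passed. At an adjusted p of 0.05, 3 ISG15 system genes passed with either unloaded library left out, 1 (*Uba7*) without loaded replicate 1 and 0 without loaded replicate 2. The cause of these differences was not tested. RLE and upper-quartile factors and limma-voom gave counts within 1.5 times those of the main test. With 2 libraries a group, the standard error of the log2 fold change was largest for *Ube2l6* (0.308) and next for *Usp18* (0.233), which had 80 and 94 counts in the loaded libraries.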
